A study of Mus musculus with 2 samples.

Results

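The minor spliceosome was followed here through 10 named members in RNA that lacks a poly(A) tail. The members were its 4 small nuclear RNAs (snRNAs), U11, U12, U4atac and U6atac, and 6 proteins of its U11/U12 particle, Rnpc3, Zcrb1, Pdcd7, Snrnp48, Snrnp35 and Snrnp25. Every gene with 1 of these names in the GENCODE M1 annotation of mouse genome mm9 was taken, which gave 46 of 37273 annotated genes on the chromosomes of the files. Of these, 40 were snRNA copies (5 of U11, 6 of U12, 1 of U4atac and 28 of U6atac) and 6 were protein genes. Reads were found on the gene strand of 13 of the 46, namely 7 snRNA copies and all 6 protein genes. The copies of the snRNAs were taken by name, so pseudogenes that carry the name were counted as members.

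The study compared mouse embryonic stem cells (ESCs) with neuronal progenitor cells (NPCs) derived from them, asking which non-polyadenylated (NPA) RNAs the cells hold. The ESCs were the male R1 line, kept with leukemia inhibitory factor on embryonic fibroblasts that Mitomycin C had stopped from dividing. The NPCs came from the same line, which spent 4 days without that factor as embryoid bodies, was replated on poly-L-ornithine and fibronectin, and was gathered on day 7. Each cell type was 1 library of ribosomal RNA-depleted NPA RNA, fragmented with RNase III and read from the 5' side of the fragments, with 4271306 mapped reads in the ESC library and 4399729 in the NPC library. With 1 library per cell type no test was possible, so every interval below is a 95% interval for counting error alone, and every ratio compares these libraries. The reads carry no molecular identifiers, so copies made by PCR cannot be told from separate molecules.

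Most introns are removed by the major spliceosome, and a small class, the U12-type introns, is removed by the minor spliceosome. U11 pairs with the 5' splice site and U12 with the branch site of such an intron, both within a single U11/U12 particle; U6atac arrives paired to U4atac, is released from it, and replaces U11 at the 5' splice site. U11, U12 and U4atac are made by RNA polymerase II and carry a ring of Sm proteins on a T-rich core, while U6atac is made by RNA polymerase III and ends in a run of T. None of the 4 has a poly(A) tail, so all belong in the RNA fraction measured.

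The sequences of the 4 copies that held most reads show these contacts, and are printed because the positions of the reads below are counted along them. They are given 5' to 3' as DNA from mm9. U11 is at chr4:131825995-131826128 on the minus strand, U12 at chr15:82980074-82980224 on the plus strand, U4atac at chr1:120355718-120355842 on the minus strand, inside an intron of Clasp1 (a plus strand gene), and U6atac at chr2:27395325-27395450 on the minus strand. All but U4atac lie between annotated genes. Capitals mark the longest stretch complementary to the U12-type 5' splice site TATCCTTTT (in U11 and U6atac) or to the branch site TTCCTTAAC (in U12), the longest stretch that U4atac and U6atac can pair with each other, and the Sm core AATTTTT.
U11: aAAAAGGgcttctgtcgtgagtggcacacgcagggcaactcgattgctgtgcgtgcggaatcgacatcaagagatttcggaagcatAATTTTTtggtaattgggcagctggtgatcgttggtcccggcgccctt
U12: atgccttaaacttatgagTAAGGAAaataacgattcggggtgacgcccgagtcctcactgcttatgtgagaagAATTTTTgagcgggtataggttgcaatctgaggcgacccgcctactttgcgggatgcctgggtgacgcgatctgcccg
U4atac: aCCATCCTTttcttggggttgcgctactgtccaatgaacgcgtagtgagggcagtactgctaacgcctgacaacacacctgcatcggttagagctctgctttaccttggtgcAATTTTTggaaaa
U6atac: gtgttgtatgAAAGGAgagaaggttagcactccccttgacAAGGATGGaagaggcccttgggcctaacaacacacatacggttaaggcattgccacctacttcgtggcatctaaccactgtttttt

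The stretch facing the 5' splice site was 6 bases long in both U11 (bases 2 to 7) and U6atac (bases 11 to 16), and the stretch facing the branch site was 7 bases long in U12 (bases 19 to 25). U4atac bases 2 to 9 and U6atac bases 41 to 48 were complementary over 8 bases. The Sm core stood at bases 87 to 93 of U11, 74 to 80 of U12 and 113 to 119 of U4atac. It was absent from U6atac, which ended in 6 T. Searched on the gene strand, AATTTTT was held by all 5 U11 copies, 4 of the 6 U12 copies, the U4atac gene and 0 of 28 U6atac copies, against 109 of all 1423 annotated snRNA genes (7.66%). On the opposite strand it was held by 58 of the 1423 (4.08%). These matches describe the letters only.

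U11 was the scarcest of the 4 snRNAs in both libraries. Its level per length, in RPKM (reads per kilobase of the gene and per 1000000 mapped reads), was 224 in ESCs (interval 187 to 266) and 131 in NPCs (103 to 163), against 1657 and 596 for U12, the other RNA of the same particle. U4atac stood at 1787 and 1633 RPKM, and its partner U6atac at 1304 (1210 to 1405) and 658 (593 to 730). In ESCs the intervals of U12 (1560 to 1760) and U4atac (1675 to 1904) overlapped, so their order was not resolved, while U6atac and then U11 lay below. In NPCs U4atac (1528 to 1743) lay above the others, the intervals of U6atac and U12 (539 to 658) overlapped, and U11 was again lowest. The order of these levels also reflects how well each RNA was cut and ligated, which was not measured.

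The NPC library held fewer reads of U11, U12 and U6atac, and nearly as many of U4atac. The 4 snRNAs together made up 0.0668% of all reads in ESCs and 0.0395% in NPCs, a ratio of 0.591 (interval 0.556 to 0.627). The NPC to ESC ratios of RPM (reads per 1000000 mapped reads) were 0.360 for U12 (interval 0.320 to 0.404), 0.505 for U6atac (0.444 to 0.574), 0.584 for U11 (0.434 to 0.781) and 0.914 for U4atac (0.833 to 1.00). All 4 were lower in NPCs by RPM, as 37.2% of the 14859 genes with at least 10 reads were. The interval lay below 1 for 3 of 4 snRNAs, a call that 20.3% of those genes also met. U12 was also more than 2-fold lower, as 12.8% of those genes were. The median gene stood at a log2 ratio of 0.34, which is 1.26-fold higher in NPCs, and the 4 snRNAs stood 1.12, 1.81, 0.47 and 1.33 log2 units below it (U11, U12, U4atac and U6atac). In bulk RNA, fewer cells that express a gene and less of its RNA per cell cannot be told apart.

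**Figure D1:**
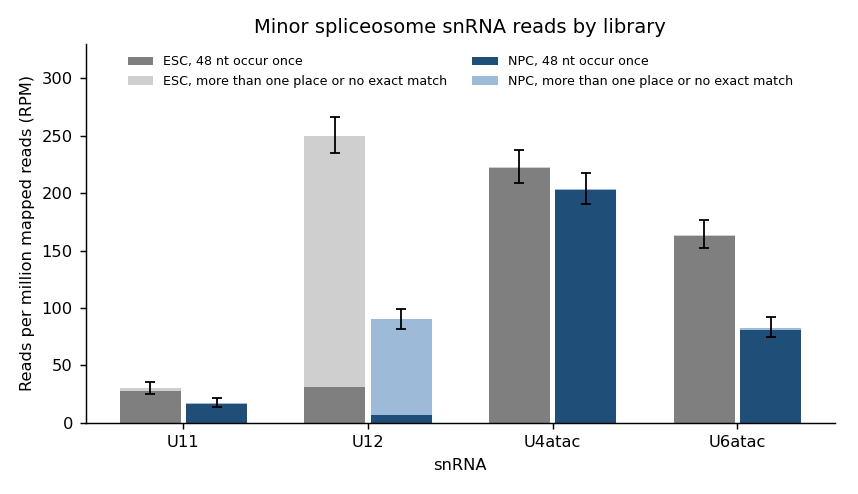
RPM of the 4 snRNAs in the ESC library (grey) and the NPC library (blue), with the part whose 48 nt occur once in mm9 in the darker shade; error bars are 95% Poisson intervals of the total. U12 stands at 250 RPM in ESCs and 90.0 RPM in NPCs and is the only one of the 4 built mostly from reads with more than one place in the genome, while U4atac stands at 223 and 204 RPM.

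How surely a read belonged to its snRNA differed between the 4. Each of the 48-nt windows of the U11, U4atac and U6atac copies that held reads occurs once in mm9. Accordingly, 117 of 128 ESC reads and 71 of 77 NPC reads of U11 occurred once and the rest had no exact match (a mismatch to the genome). For U4atac these numbers were 948 of 954 and 894 of 898, and for U6atac 695 of 702 and 356 of 365. The ratios over reads that occur once were 0.589, 0.916 and 0.497 for U11, U4atac and U6atac, close to the ratios over all reads. The other 4 U11 copies and the other 27 U6atac copies held 0 reads on their strand, although every 48-nt window of them also occurs once.

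U12 differed, because its reads were spread over 4 copies that share sequence. The copy on chromosome 15 held 781 ESC and 297 NPC reads, the copy at chr5:7177706-7177856 (minus strand) held 233 and 91, the copy at chr14:22631933-22632077 (plus strand) held 51 and 8, and the copy at chr2:129141065-129141215 (minus strand) held 4 and 0. All 4 lie outside other annotated genes, and the remaining 2 copies held 0 reads. The 3 lesser copies are printed with the bases that differ from the chromosome 15 copy in capitals, since these bases decide which reads can be assigned.
U12 copy on chromosome 5: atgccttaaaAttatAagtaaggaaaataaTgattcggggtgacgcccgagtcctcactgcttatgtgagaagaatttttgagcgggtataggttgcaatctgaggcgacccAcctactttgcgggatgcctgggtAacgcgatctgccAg
U12 copy on chromosome 14: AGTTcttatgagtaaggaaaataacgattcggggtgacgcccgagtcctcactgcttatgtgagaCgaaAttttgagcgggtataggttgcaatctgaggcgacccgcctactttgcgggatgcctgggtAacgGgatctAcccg
U12 copy on chromosome 2: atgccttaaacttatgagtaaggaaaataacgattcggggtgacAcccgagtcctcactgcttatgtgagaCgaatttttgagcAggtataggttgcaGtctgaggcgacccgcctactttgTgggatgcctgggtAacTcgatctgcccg

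The chromosome 5 copy differed from the chromosome 15 copy at 6 of 151 bases (C11A, G16A, C31T, G113A, G137A and C150A, counted from the 5' end of the chromosome 15 copy, whose base comes first). The chromosome 2 copy differed at 7 of 151 bases and the chromosome 14 copy at 9 of 145 aligned bases, among them T76A inside the Sm core. Of the 104 windows of 48 nt in the chromosome 5 copy 70 occur once in mm9, and of the 98 in the chromosome 14 copy 71 do, yet none of the reads placed on either copy in either library occurred once. By contrast, the chromosome 15 copy has only 43 of 104 windows that occur once, but it held 131 ESC and 29 NPC reads that occur once, a few of them running past its 3' end. The reads that told the copies apart were thus on the chromosome 15 copy, except for the 4 ESC reads of the chromosome 2 copy, all of which occurred once.

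Reads from the stretch that the chromosome 15 and chromosome 5 copies share were divided between them in like proportions in both libraries. Over the 34 windows the copies have in common, which begin at bases 32 to 65, 583 ESC reads lay on chromosome 15 and 231 on chromosome 5, a share of 28.4% on chromosome 5 (interval 25.3 to 31.6%). In NPCs the numbers were 252 and 88, a share of 25.9% (21.3 to 30.9%). Over the windows shared with chromosome 14, 57 ESC reads lay on chromosome 15 and 51 on chromosome 14, and in NPCs 12 and 8. The submitters let the aligner choose 1 best place for such reads, so the division says nothing about which copy made them, and U12 is best read as the sum over its copies.

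**Figure D2:**
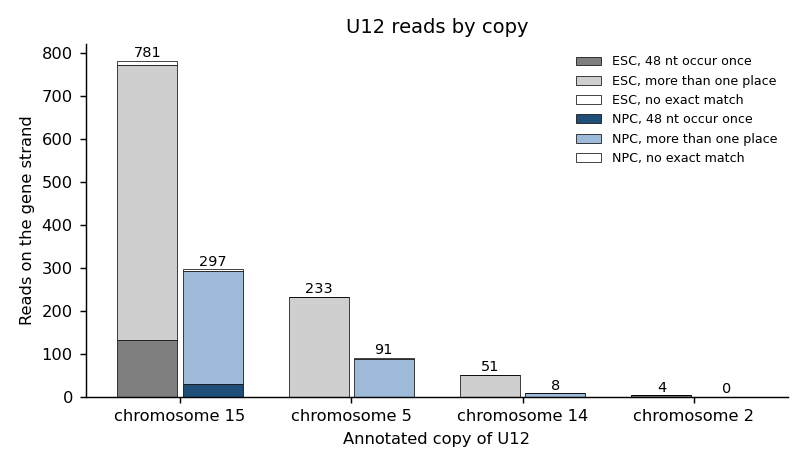
Reads on the gene strand of the 4 annotated U12 copies with reads, in the ESC library (grey) and the NPC library (blue), stacked by whether the 48 nt occur once, more than once or without an exact match in mm9. The darkest part, reads that occur once, stands on the chromosome 15 copy (131 and 29 reads) and, as 4 ESC reads, on the chromosome 2 copy.

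The ratio of U12 depended on which reads were counted. Over the reads that occur once, 135 in ESCs and 29 in NPCs, the ratio was 0.209 (interval 0.135 to 0.313), against 0.360 over all its reads. With each start position counted a single time, its log2 ratio was -0.74, against -1.48 over all reads. The windows of the chromosome 15 copy that occur once begin at bases 1 to 10 (46 ESC and 7 NPC reads), 25 to 31 (72 and 20), 66 to 76 (6 and 1) and 90 to 104 (0 and 0). They miss both clusters of starts that held most U12 reads. Most U12 reads that occur once therefore begin near its 5' end.

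Read starts were concentrated at a few bases of each snRNA, and most of these bases were the same in both libraries. In U6atac, base 17 began 481 of 702 ESC reads (68.5%, interval 64.9 to 71.9%) and 292 of 365 NPC reads (80%, 75.5 to 84.0%). That base follows directly on the stretch complementary to the 5' splice site, and the 48 nt read from it are given on the next line. They contain the whole stretch that pairs with U4atac.
U6atac read from base 17: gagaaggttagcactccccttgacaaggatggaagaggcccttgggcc
Here and below, a read covered a stretch when it held all bases of that stretch. In all, 672 of 702 ESC reads (95.7%) and 349 of 365 NPC reads (95.6%) covered the U4atac-pairing stretch of U6atac. The stretch facing the 5' splice site was covered by 112 ESC reads (16%, interval 13.3 to 18.9%) and 42 NPC reads (11.5%, 8.42 to 15.2%).

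U11 was read from 3 places. Bases 30 to 34 began 34 of 128 ESC reads and 16 of 77 NPC reads, bases 53 to 60 began 55 and 39, and base 80 alone began 20 and 12. The most used base in ESCs was base 32 (25 ESC and 14 NPC reads), and in NPCs it was base 58 (12 and 21). At base 58 the share of U11 reads was 9.38% in ESCs (interval 4.94 to 15.8%) and 27.3% in NPCs (17.7 to 38.6%), intervals that do not overlap, whereas at base 54 it was 12.5% (7.32 to 19.5%) and 3.90% (0.811 to 11%), intervals that do. No read of either library covered bases 2 to 7, the stretch that faces the 5' splice site. That allows a share of up to 2.84% of the U11 reads in ESCs and 4.68% in NPCs (upper Clopper-Pearson limits). These limits are for reads that hold the whole stretch. A few reads began inside it and held a part, among them 2 ESC and 2 NPC reads at base 6. The Sm core was covered by 84 ESC reads (65.6%) and 54 NPC reads (70.1%).

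On the chromosome 15 copy of U12, bases 39 to 42 began 425 of 781 ESC reads (54.4%, interval 50.8 to 58%) and 138 of 297 NPC reads (46.5%, 40.7 to 52.3%). Bases 48 to 51 began 142 ESC reads (18.2%, 15.5 to 21.1%) and 107 NPC reads (36%, 30.6 to 41.8%). The balance of these clusters thus differed between the libraries by more than counting error. The NPC to ESC ratio of RPM was 0.232 for starts in bases 1 to 38, 0.315 for bases 39 to 42 and 0.732 (interval 0.564 to 0.947) for bases 48 to 51. The stretch that faces the branch site was covered by 95 ESC reads (12.2%, 9.95 to 14.7%) and 18 NPC reads (6.06%, 3.63 to 9.41%).

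U4atac, whose total hardly differed between the libraries, had the most unlike start profiles of the 4. Bases 27 to 29 began 237 of 954 ESC reads (24.8%, interval 22.1 to 27.7%) and 425 of 898 NPC reads (47.3%, 44.0 to 50.7%), a ratio of RPM of 1.74 (1.48 to 2.05). Bases 57 and 58 began 108 ESC reads and 20 NPC reads, a ratio of 0.180 (0.106 to 0.292). Bases 4 to 10 were lower likewise, with 149 ESC and 65 NPC reads (ratio 0.424, 0.311 to 0.570), and bases 14 to 22 held 312 and 291 (ratio 0.905, 0.769 to 1.07). The total ratio near 1 was thus the sum of starts that were higher and starts that were lower in NPCs. The whole stretch of U4atac that pairs with U6atac was covered by 18 ESC reads (1.89%, 1.12 to 2.97%) and 3 NPC reads (0.334%, 0.0689 to 0.973%). Further reads began inside that stretch, among them 38 ESC and 16 NPC reads at base 4. No read of either library covered the whole Sm core of U4atac, though reads that began at base 67 (11 ESC and 6 NPC) reached into it.

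Set base by base, the profiles of the libraries shared 85.5% of their area for U6atac, 73.0% for U12, 71.5% for U11 and 67.7% for U4atac, where 100% would be identical profiles. U11 rests on the fewest reads, so counting error alone lowers its value more. The groups of bases above were drawn around the clusters of starts after these were seen. RNase III, which cuts double-stranded RNA, and the ligation of adaptors both act on where a read begins, and their part in these profiles was not tested.

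**Figure D3:**
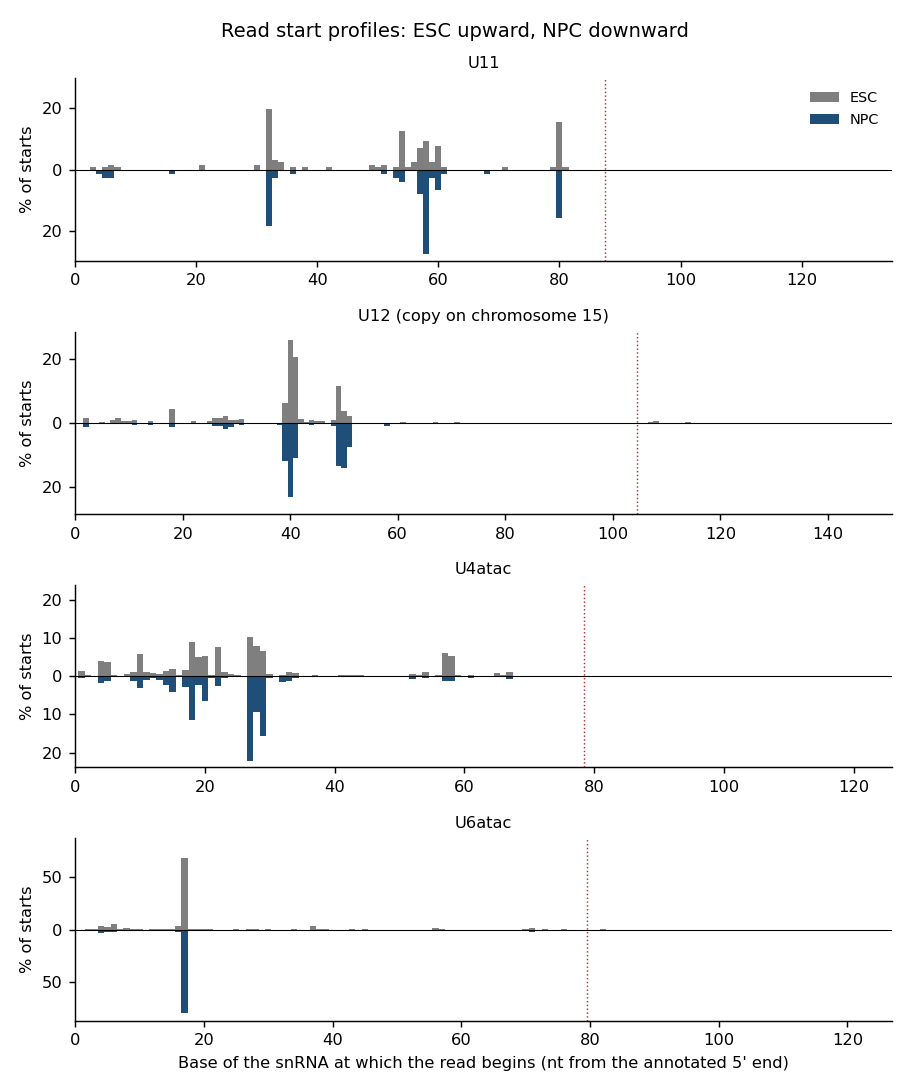
Share of read starts (percent) at each base of the 4 snRNAs, with ESCs upward in grey and NPCs downward in blue; the dotted line marks the last base from which a 48-nt read still ends inside the snRNA. U6atac is read mainly from base 17 (68.5% and 80% of starts), U4atac shifts toward bases 27 to 29 in NPCs (24.8% and 47.3%), and bases 57 and 58 of U4atac are used mainly in ESCs (108 and 20 reads).

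The exon reads of the 6 proteins together were 269 in ESCs and 306 in NPCs, a ratio of 1.10 (interval 0.934 to 1.31), against 0.591 for the sum of the snRNAs. By median scaling the log2 ratio of this sum was -0.20, against 0.14 by library total, and the intervals of several proteins overlapped those of U11 and U4atac. Since mRNA with a poly(A) tail had been removed, these exon reads are from the NPA fraction and are not a measure of total mRNA. Nearly all could be placed, as 97.8% of the ESC and 96.1% of the NPC exon reads occurred once in mm9. The interval lay above 1 for 2 of 6 proteins (Rnpc3 and Zcrb1) and below 1 for 0 of 6, where 46% and 18.6% of protein-coding genes met these calls, so the counts are near the background.

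Rnpc3, the 65K protein that bridges U12 and the U11-bound proteins, had 40 ESC and 80 NPC exon reads, or 1.41 RPKM (interval 1.01 to 1.92) and 2.74 RPKM (2.18 to 3.41). Its ratio was 1.94 (1.31 to 2.91). Of these, 1 ESC and 5 NPC reads also overlapped an exon of Amy1, an amylase gene annotated on the same strand, and cannot be assigned to either gene. Zcrb1, the 31K RNA-binding protein of the particle, had 22 and 51 reads, or 1.68 RPKM (1.05 to 2.54) and 3.77 RPKM (2.81 to 4.96), a ratio of 2.25 (1.34 to 3.90). Zcrb1 was the only one of the 6 proteins more than 2-fold apart after 1 read was added to each library, where 24.6% of all genes with at least 10 reads were more than 2-fold higher. Scaled by the median of ratios over genes, its log2 ratio was 0.83, within 2-fold.

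The remaining proteins did not differ beyond counting error. Pdcd7, the 59K protein that binds the 65K protein, had 114 and 91 exon reads, or 10.9 RPKM (interval 8.97 to 13.1) and 8.42 RPKM (6.78 to 10.3), a ratio of 0.775 (0.582 to 1.03). Snrnp48, the 48K protein that contacts the 5' splice site, had 49 and 46 reads, or 6.41 and 5.84 RPKM, a ratio of 0.911 (0.596 to 1.39). Snrnp25, the 25K protein of U11, had 40 and 29 reads, or 9 and 6.33 RPKM, a ratio of 0.704 (0.421 to 1.16). Snrnp35, the 35K protein that resembles the 70K protein of the major U1 particle, had only 4 and 9 reads, or 0.695 and 1.52 RPKM, and its ratio of 2.18 had an interval from 0.610 to 9.71. By level per length of all annotated exons joined, Pdcd7, Snrnp25 and Snrnp48 stood above Rnpc3, Zcrb1 and Snrnp35 in both libraries. Within each of these groups neighbouring intervals overlapped, and in NPCs that of Zcrb1 also overlapped those of Snrnp25 and Snrnp48. This order depends on the length used. The joined exons of Zcrb1 span 3074 nt, but its longest coding transcript is 877 nt, on which 18 ESC and 39 NPC reads began. For Pdcd7 the lengths are 2455 and 2454 nt, with 114 and 90 such reads.

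**Figure D4:**
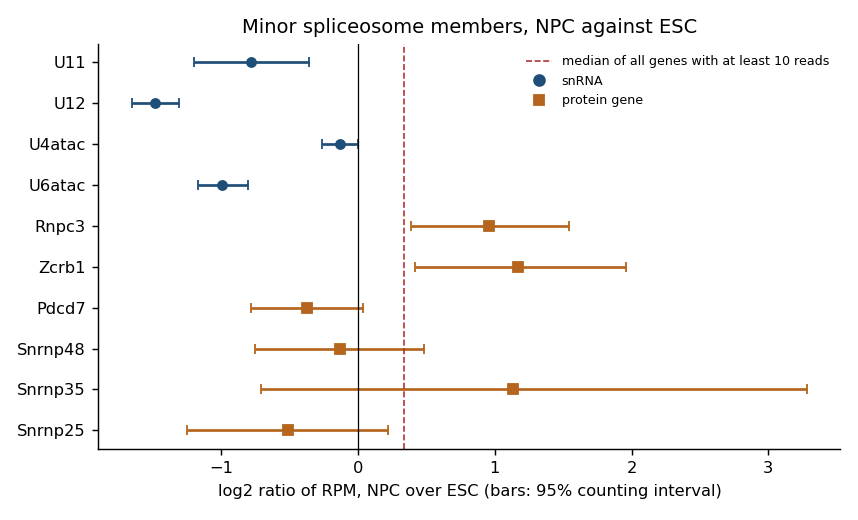
log2 ratio of RPM, NPC over ESC, for the 4 snRNAs (circles) and the 6 proteins (squares), with 95% counting intervals; the solid line is 0 and the dashed line the median of genes with at least 10 reads (0.34). The snRNAs lie from -1.48 (U12) to -0.13 (U4atac), all left of the dashed line, while Rnpc3 (0.96) and Zcrb1 (1.17) lie right of it and Snrnp35 has the widest interval.

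Along the genes, reads were uneven. In Pdcd7 the last of 5 exons (1049 nt) held 85 of the ESC and 69 of the NPC reads, and the first exon (941 nt) held 8 and 3. In Snrnp25 the first exon (249 nt) held 21 and 13 reads. In Rnpc3 the last of 14 exons is by far the longest, at 3345 nt, and held 2 ESC and 13 NPC reads, and of the reads that began on that transcript, 23 of 25 in ESCs and 49 of 62 in NPCs lay in the third nearest its 5' end. The uneven cover was thus found in both libraries.

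Reads also lay inside introns of the proteins. Those of Snrnp48 held 62 ESC reads and 109 NPC reads, more than its exons in both libraries, though less per length (2.96 and 5.21 reads per kilobase in introns, 27.4 and 25.7 in exons). The introns of Rnpc3 held 35 and 43 reads (1.90 and 2.33 per kilobase, against 6.04 and 12.1 in exons), those of Zcrb1 5 and 10, those of Pdcd7 8 and 4, those of Snrnp35 2 and 5 and those of Snrnp25 2 and 2. In Snrnp48 the reads fell mainly in intron 4 of 8 (29 ESC and 61 NPC reads, ratio 2.04, interval 1.29 to 3.30) and in intron 6 (22 and 36, ratio 1.59, 0.910 to 2.83). The exon reads of the same gene had a ratio of 0.911, with an interval that overlaps that of intron 4.

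The genes of the 48K and 65K proteins are known to carry a conserved pair of U12-type 5' splice sites that the U11/U12 particle binds, and through which the particle acts on the splicing of these 2 transcripts. The core TATCCTT was therefore searched on both strands of the 6 protein genes, after the intron reads had been seen. A pair on the gene strand with starts at most 40 nt apart was found in Snrnp48 and Rnpc3, 1 in each, and 0 were found in the other 4 genes or on the opposite strands. Of all 60-nt tiles of the mm9 chromosomes, both strands counted, 0.00195% held the core more than once on 1 strand. That share is not a background for whole genes, as the 6 genes span 3570 to 25083 nt each and so many tiles. The tiles also had no 40-nt limit and missed pairs across their edges. The share of all genes with such a pair was not counted. Both pairs are printed with the core in capitals, since they match the letters of that known element. Binding was not measured.
Snrnp48, chr13:38306538-38306562, plus strand, intron 4: TATCCTTtttgcaaatgaTATCCTT
Rnpc3, chr3:113310155-113310173, minus strand, last exon: TATCCTTtcttgTATCCTT
The cores began 18 nt apart in Snrnp48 and 12 nt apart in Rnpc3, where the pair lies in the part of the last exon annotated as 3' UTR.

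The intron reads of Snrnp48 lay mostly on the 3' side of its pair. In the 1631 nt from the pair to the next exon, 20 ESC and 46 NPC reads began (12.3 and 28.2 per kilobase), a ratio of RPM of 2.23 (interval 1.29 to 3.98). In the 3527 nt of the same intron before the pair, 9 and 15 reads began (2.55 and 4.25 per kilobase). The reads were densest from 1250 to 1499 nt past the pair, with 7 ESC and 20 NPC starts. All 29 ESC reads of the intron, and 58 of 61 NPC reads, occurred once in mm9, and they began at 23 and 38 distinct bases. In the last exon of Rnpc3, 0 ESC and 2 NPC reads began in the 1156 nt before the pair (0 and 1.73 per kilobase). In the 2170 nt after it, 2 and 11 began (0.922 and 5.07 per kilobase). Reads that also overlap an exon of Amy1 were not set apart in these few counts.

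**Figure D5:**
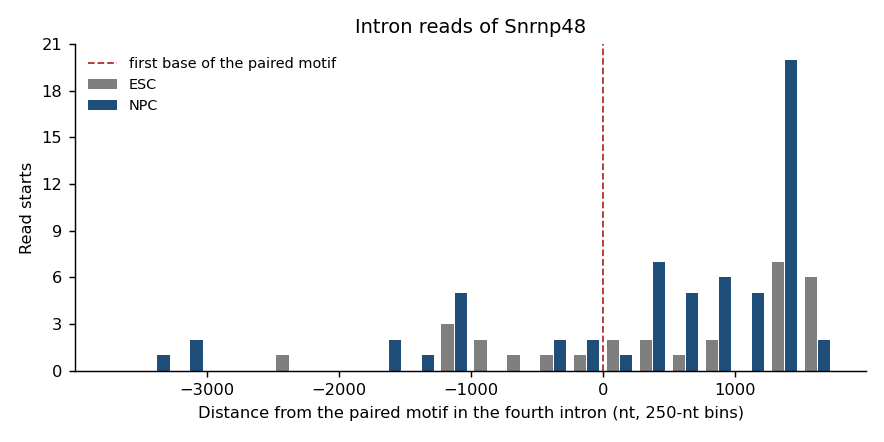
Read starts per 250 nt along intron 4 of Snrnp48 in the ESC library (grey) and the NPC library (blue). Distances are from the first base of its pair of TATCCTT cores (dashed line). Past the pair lie 20 of 29 ESC starts and 46 of 61 NPC starts, with the highest bar (20 NPC starts) at 1250 to 1499 nt.

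The other genes of the pathway were described by lists. For each, the counts are of genes more than 2-fold apart with 1 read added, beside the median log2 ratio, and over all 14859 genes these were 3658 higher, 1908 lower and a median of 0.34. Of 9 other minor spliceosome factors 1 was more than 2-fold higher and 0 lower (median 0.43). Armc7, a partner of Rbm48, had 2 ESC and 11 NPC reads (ratio 5.34, interval 1.17 to 49.6). Zmat5, the 20K protein of the U11/U12 particle, had 16 and 10 (ratio 0.607, 0.246 to 1.42).

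Of 35 proteins that both spliceosomes use, 3 were more than 2-fold higher and 0 lower (median 0.32). They were the Sm protein Snrpd3 (62 and 132 reads, ratio 2.07) and the Sm-like proteins Lsm7 (6 and 17, ratio 2.75) and Lsm8 (68 and 143, ratio 2.04). Both Sm-like proteins belong to the ring that U6-type snRNAs carry. Of the Lsm7 reads, only 0 in ESCs and 1 in NPCs occurred once in mm9. The Lsm7 ratio (interval 1.03 to 8.52) thus rests on reads whose place is unsure. Of 10 proteins listed for the major U1 and U2 particles and the U2 auxiliary factor, 0 were more than 2-fold higher and 1 was lower (median 0.03). The lower one was Snrpa of the U1 particle, with 254 and 123 reads (ratio 0.470, interval 0.376 to 0.585). Of these 10, 5 were higher and 5 lower.

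Of 36 genes that act in the transcription and assembly of snRNAs, 6 were more than 2-fold higher and 1 lower, with a median of 0.53. The higher ones were Snapc1, a subunit of the complex that binds snRNA promoters (16 and 41 reads, ratio 2.49), Ints5 and Ints6 of the Integrator complex, which cuts the 3' ends of snRNAs (ratios 3.07 and 3.79), Ncbp2 of the cap-binding complex (3.88), Toe1, which trims snRNA 3' ends (3.32), and Wdr77, a partner of the Sm protein methylase (2.28). The lower one was Cpsf3l, the subunit of Integrator that cuts, with 339 and 154 reads (ratio 0.441, interval 0.362 to 0.535). Members of 1 complex thus lay on both sides of 1. None of these 7 intervals included 1.

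Introns with a U12-type start, taken by their letters, held more reads in NPCs by library total. Among 212421 annotated introns of protein-coding genes, 563 in 497 genes began with ATATCCTT or GTATCCTT, the letters taken here as a U12-type start. Reads wholly inside them and outside all exons were 1698 in ESCs and 2499 in NPCs (0.732 and 1.08 per kilobase), a ratio of 1.43 (interval 1.34 to 1.52). Other introns of the same genes held 16979 and 20355 reads (0.486 and 0.583 per kilobase), a ratio of 1.16 (1.14 to 1.19). Both intervals lay above 1 and did not overlap. These ratios are by library total, by which the median gene was 1.26-fold higher in NPCs, and scaling by that median was not run for introns. Annotated introns that overlap were listed separately, but a read was counted a single time in each sum. Of the 563, 188 held no read in either library. The 5 introns with the most reads, in Nup210l, Srsf10, Ube2h, Wdr1 and Atxn10, held 294 ESC and 507 NPC reads. A read inside an intron can come from unspliced RNA, from a released intron or from an RNA encoded there, and these were not told apart.

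Counted over exons, 98 of the 420 genes with a U12-type intron and at least 10 reads were more than 2-fold higher and 35 lower, with a median of 0.47. Of 5 further genes, named for their use in the study, values follow. Eed, a Polycomb protein, had 5 ESC and 12 NPC reads inside its U12-type intron, and Gars, the glycyl-tRNA synthetase, had 6 and 8. Psmc4, a proteasome subunit, and Phb2, a prohibitin, had 0 and 0. By these letters Drap1 had no U12-type intron. Their exon ratios were 1.36 for Eed (interval 1.17 to 1.58), 1.68 for Gars (1.53 to 1.86), 2.02 for Psmc4 (1.75 to 2.34), 1.15 for Phb2 (1.02 to 1.31) and 0.743 for Drap1 (0.525 to 1.05). Rnpc3 itself has a U12-type start by these letters at its last intron, which held 1 read in each library.

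Among the major snRNAs, counted as a comparison, U2 had 711 ESC and 271 NPC reads over 51 copies (ratio 0.370, interval 0.321 to 0.426), and U1 had 32 and 8 (ratio 0.243, 0.0966 to 0.538). U6 had 18 and 7, and U4, U5 and U7 had 0 in both. The submitters had removed reads in repeat-masked regions, which can hold copies of these genes, and its part in these counts was not tested. None of the intervals on the 4 minor snRNAs was shortened, as were 3.77% of ESC and 4.23% of NPC intervals over the whole libraries. Of the U2 reads, 62 in ESCs and 34 in NPCs occurred once, so most could not be assigned to a copy.

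The cell type labels were checked with markers. Of 7 pluripotent markers 6 were more than 2-fold lower in NPCs (1919 RPM in sum in ESCs, 537 in NPCs). Of the neural progenitor markers, Nes had 66 ESC and 121 NPC reads, Zic1 had 1 and 22, and Pax6 had 1 and 12. Sox3 and Fabp7 had 0 reads in ESCs and 5 and 2 in NPCs. All 10 markers of extraembryonic endoderm were more than 2-fold higher in NPCs, and summed to 590 RPM in ESCs (Ttr at 0) and 10775 RPM in NPCs, and the 7 fibroblast markers summed to 45.9 and 61.8 RPM. The NPC library thus carried more reads of the endoderm markers than of the neural markers given. The part of these cells in the snRNA ratios was not tested.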

How the data were processed

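Each of the 2 samples was deposited as a list of mapped reads, in which the authors had aligned 50-nt SOLiD reads to mm9 with Bowtie (version not given in the sources used here), kept 1 best place per read and removed mitochondrial, ribosomal and repeat-masked reads. The deposited values are positions with a 48-nt sequence and not counts or a score; counts were made here. Reads on the gene strand that overlapped a GENCODE M1 exon by at least 1 base were counted, each once per name, with Python 3.11.15, NumPy 2.4.6 and SciPy 1.17.1. The 48 nt of each read were matched to both strands of mm9 to find how often they occur (78.2% of ESC and 83.2% of NPC reads occur once). RPM used all mapped reads, so 1 read was 0.234 RPM in ESCs and 0.227 RPM in NPCs, and RPKM also exon length. A count of 0 allows up to 3 reads. Intervals were exact Poisson (counts), Clopper-Pearson (shares) and conditional binomial (ratios) at 95%. Genes needed 10 reads in both libraries together. List medians had 1 read added. The counting and interval functions were tested on simulated data.

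All members were named. From the lists, genes were named when more than 2-fold apart with an interval that left out 1, beside Zmat5 and the 5 genes with a U12-type intron that the study measured, and markers were named to check the cell types; genes of the list of 497 were not named by this rule for their number. The members and lists were chosen with earlier results of these data known. Lists were described by counts and medians without a test. Of the symbols listed, Sox1 could not be matched and was left out. 1 marker is not reported here. Alternatives were the scaling of the libraries, each start counted once, reads that occur once, reads placed by their 5' end, both strands, another number of reads added, another minimum of reads, and another definition of U12-type introns.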

Additional observations from a re-analysis of the deposited data

Results flagged for a closer look

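Reads outside the annotated snRNAs, which no comparison above uses, were counted, and a value is given where it passed the 3 reads that a count of 0 allows. Past the annotated 3' end of U11, 5 ESC reads and 10 NPC reads began within 300 nt on the U11 strand. Their starts lay between 9 and 136 nt from the end. No interval was computed for these few reads, so they are not set against the ratio of U11 itself. Past U12 on chromosome 15, 4 ESC reads began (220 to 243 nt from the end), and past U4atac 4 ESC reads did (and 1 NPC read, all 137 to 156 nt from the end). No read began within 300 nt upstream of any of the 4 snRNAs in either library. On the strand opposite to a U6atac copy, 4 NPC reads (and 2 ESC reads) lay at ENSMUSG00000088602.1 and 4 ESC reads at ENSMUSG00000088951.1. Both copies were without reads on their own strand. They are plus strand copies inside introns of minus strand genes, Zfp644 and Gorab in that order. The reads opposite to them thus lay on the strand of the host gene. The source of these reads was not tested.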

How the results depend on the processing

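With 1 library per cell type no library could be left out. No paired analysis was possible because each cell type has 1 library. Each of the 10 members kept the direction of its ratio under the alternatives run. Scaled by the median of ratios, the log2 ratio of U12 was -1.81, of U4atac -0.47, of U6atac -1.33 and of the summed proteins -0.20, and the median of the shared proteins turned to -0.02 and that of genes with a U12-type intron was 0.13. With each start counted a single time, U12 was at -0.74 and U4atac at -0.57, the summed proteins at -0.01, and the medians were -0.13 for shared proteins (turned), 0.11 for transcription and assembly and 0.10 for genes with a U12-type intron. Over reads that occur once, scaled to their own total, U12 was at -2.35, with 0% of its ESC and NPC starts at base 40, where no window occurs once. Genes more than 2-fold apart became, by median scaling, 3 of the other minor factors, 1 of the shared proteins and 4 of the U1 and U2 proteins; by single starts, 2, 0 and 0 of these, 4 of transcription and assembly and 78 with a U12-type intron; and with at least 50 reads, 0 of the other minor factors. Reads that overlapped a U12-type intron by at least 1 base gave a log2 ratio of 0.89, against 0.51, while the same change took the ratio of the other introns of these genes from 1.16 to 1.10, and the cause was not tested. The counts behind Snrnp35 (4 and 9 reads) and the reads on the chromosome 2 copy of U12 (4 and 0) limit what can be said of them.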
